A study of Mus musculus with 6 samples.

Results

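The genes described here belong to fat cells or to the synthesis of fatty acids. They were chosen by symbol, as a list of 10 genes whose level was already known to vary from kidney to kidney in these libraries. Of the 10 genes, 9 were found among the 7373 rows of the table: Cfd, Car3, Thrsp, Lpl, Fabp4, Scd1, Scd2, Fasn and Acly. Elovl6, a fatty acid elongase gene, is outside the listed genes and was not analysed here. All 9 lay outside chromosomes X and Y and passed the filter on low counts.

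The kidneys came from grown males of the inbred mouse strain FVB/N, 3 for each genotype, and their RNA was sequenced. Transgenic mice overexpressed CryAB, a small heat shock protein, carrying the missense mutation R120G. The transgene was driven by the α-myosin heavy chain promoter, which is specific to heart muscle cells, so the kidney itself was not the target, and kidneys were taken ahead of any heart failure. Control mice were matched to them for age and sex, and the labels give no further genotype for them. All 6 libraries are from before ischemia-reperfusion, per the table's column names. Each whole kidney was cut through and frozen, and the labels do not mention whether fat around it was trimmed. The labels number no animals, and the p-values below reflect only how these 3 kidneys of a group differ, which may be in part technical.

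The libraries held 29.0, 23.5 and 31.7 M (mega) estimated counts in transgenic kidneys 1, 2 and 3 and 28.0, 34.9 and 47.6 M in control kidneys 1, 2 and 3. Control kidney 3 stood apart. All 178 genes of X and Y were listed at 0 in it and at 0 in no other library, and its score on the first principal component was 24.7, where the other 5 libraries lay between -12.5 and 0.710. Genes of X and Y were left out of the comparison, and values without control kidney 3 are given where they bear on a statement.

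Fat cells store triglyceride in a lipid droplet and release fatty acids from it. Their precursors come either from lipoproteins in the blood, cleaved by lipoprotein lipase at the capillary wall, or from new synthesis out of citrate. In new synthesis ATP citrate lyase makes acetyl-CoA, fatty acid synthase builds palmitate, an elongase lengthens it and stearoyl-CoA desaturases place a double bond. These enzymes are found in liver and fat above all, but kidney cells also make them, and a kidney is bedded in perirenal fat and carries fat in its sinus.

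The following promoter sequences are shown because they belong to genes that moved together (Cfd and Thrsp) and to a lipogenic enzyme that followed them in part (Fasn). They run from 250 bases before to 50 bases after the start that RefSeq gives, on GRCm38.p6, 5′ to 3′ on the strand of the gene. The Fasn window lies inside the gene interval (chr11:120805958-120825166), so its start is not the outer end of that interval. Capitals mark CCAAT and its reverse complement, the core bound by the factor NF-Y.
Cfd promoter (chr10:79890603-79890902, plus strand): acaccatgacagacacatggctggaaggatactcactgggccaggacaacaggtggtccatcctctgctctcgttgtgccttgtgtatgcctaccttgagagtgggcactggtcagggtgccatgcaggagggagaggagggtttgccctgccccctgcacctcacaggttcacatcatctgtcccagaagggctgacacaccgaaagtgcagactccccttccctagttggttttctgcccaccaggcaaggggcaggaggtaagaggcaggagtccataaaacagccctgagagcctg
Thrsp promoter (chr7:97417501-97417800, minus strand): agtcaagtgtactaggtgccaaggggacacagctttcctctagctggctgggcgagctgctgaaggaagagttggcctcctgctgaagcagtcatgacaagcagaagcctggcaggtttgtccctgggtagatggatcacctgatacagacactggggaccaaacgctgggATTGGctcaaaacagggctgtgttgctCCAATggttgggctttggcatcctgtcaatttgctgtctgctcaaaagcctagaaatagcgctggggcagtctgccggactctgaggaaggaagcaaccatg
Fasn promoter (chr11:120824498-120824797, minus strand): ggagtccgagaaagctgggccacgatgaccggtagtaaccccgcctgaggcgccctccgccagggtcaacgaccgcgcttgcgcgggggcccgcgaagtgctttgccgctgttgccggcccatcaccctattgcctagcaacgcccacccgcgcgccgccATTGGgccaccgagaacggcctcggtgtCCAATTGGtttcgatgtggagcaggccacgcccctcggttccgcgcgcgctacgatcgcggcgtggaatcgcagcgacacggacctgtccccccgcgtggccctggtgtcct

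Both lipogenic promoters hold CCAAT on each strand. In Thrsp it begins 79 and 52 bases before the start, and in Fasn 90, 62 and 59 bases before it, where the last 2 overlap in part. Of 32851 promoter windows of the same length, 37.4% hold CCAAT on either strand, so the match is a common one. Each of the 6 motifs was searched on both strands, only as an exact match to a fixed pattern. A window without a match can thus still hold a variant site, such as a variant sterol or PPAR element. The Cfd window holds an exact match to none of the 6 motifs. The other 5 were the sterol regulatory element (in 0.234% of windows), the GC box GGGCGG (35.7%), the E-box CACGTG (7.15%), the direct repeat bound by PPAR (0.0396%) and TATAAA (13.6%), and none of these 5 was in the Thrsp or Fasn window. Acly, the other member with a promoter in the table, held GGGCGG 4 times and CCAAT once, 37 bases after the start. Car3, Lpl, Fabp4, Scd1 and Scd2 have no entry there.

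The largest differences were between single kidneys, not between genotypes. Cfd encodes complement factor D, also called adipsin, a serine protease that fat cells secrete and that starts the alternative complement pathway (gene ID 11537, chr10:79890853-79892655, mm10). It stood at 28.7, 6.87 and 18.3 CPM (the count scaled to the size of its library) in transgenic kidneys 1, 2 and 3, against 0.221, 77.2 and 0.0430 CPM in control kidneys 1, 2 and 3. Control kidney 2 was the highest of all and control kidneys 1 and 3 were nearly without Cfd, so the 3 transgenic kidneys lay inside the span of the controls. The 6 libraries held 818, 157 and 578 counts of Cfd in transgenic kidneys and 6, 2709 and 2 in controls. The level in control kidney 2 was 1796 times that in control kidney 3, with a counting interval (exact binomial, 95%) of 497 to 14839. Exact Poisson intervals at 95% ran from 5.84 to 8.03 CPM in transgenic kidney 2 and from 0.0811 to 0.481 CPM in control kidney 1, so these kidneys differed beyond counting error. The interval of control kidney 3, 0.0052 to 0.155 CPM, overlapped that of control kidney 1, and the order of that pair was not resolved. Intervals cover counting error only, since reads are not independent molecules.

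Car3 and Thrsp had the same order of kidneys as each other. Car3 encodes carbonic anhydrase 3, the cytosolic form abundant in fat and in slow muscle (gene ID 12350, chr3:14863538-14872381). Its level was 10.99, 3.28 and 14.3 CPM in transgenic kidneys 1 to 3, against 1.88, 39.4 and 0.881 CPM in control kidneys 1 to 3. Thrsp encodes Spot 14, a small nuclear protein induced by thyroid hormone and carbohydrate that promotes lipogenesis (gene ID 21835, chr7:97412933-97417550). Its level was 10.6, 4.59 and 10.8 CPM in transgenic kidneys, against 4.27, 30.3 and 4.15 CPM in control kidneys. In both genes control kidney 2 was highest, transgenic kidneys 3 and 1 came next, transgenic kidney 2 followed, and control kidneys 1 and 3 were lowest. Against Cfd, the change of order was between transgenic kidneys 1 and 3. For Thrsp the counting intervals of these 2 kidneys overlapped, as did those of the lowest 3 kidneys, at 4.15 to 4.59 CPM, so neither order is resolved there.

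**Figure D1:**
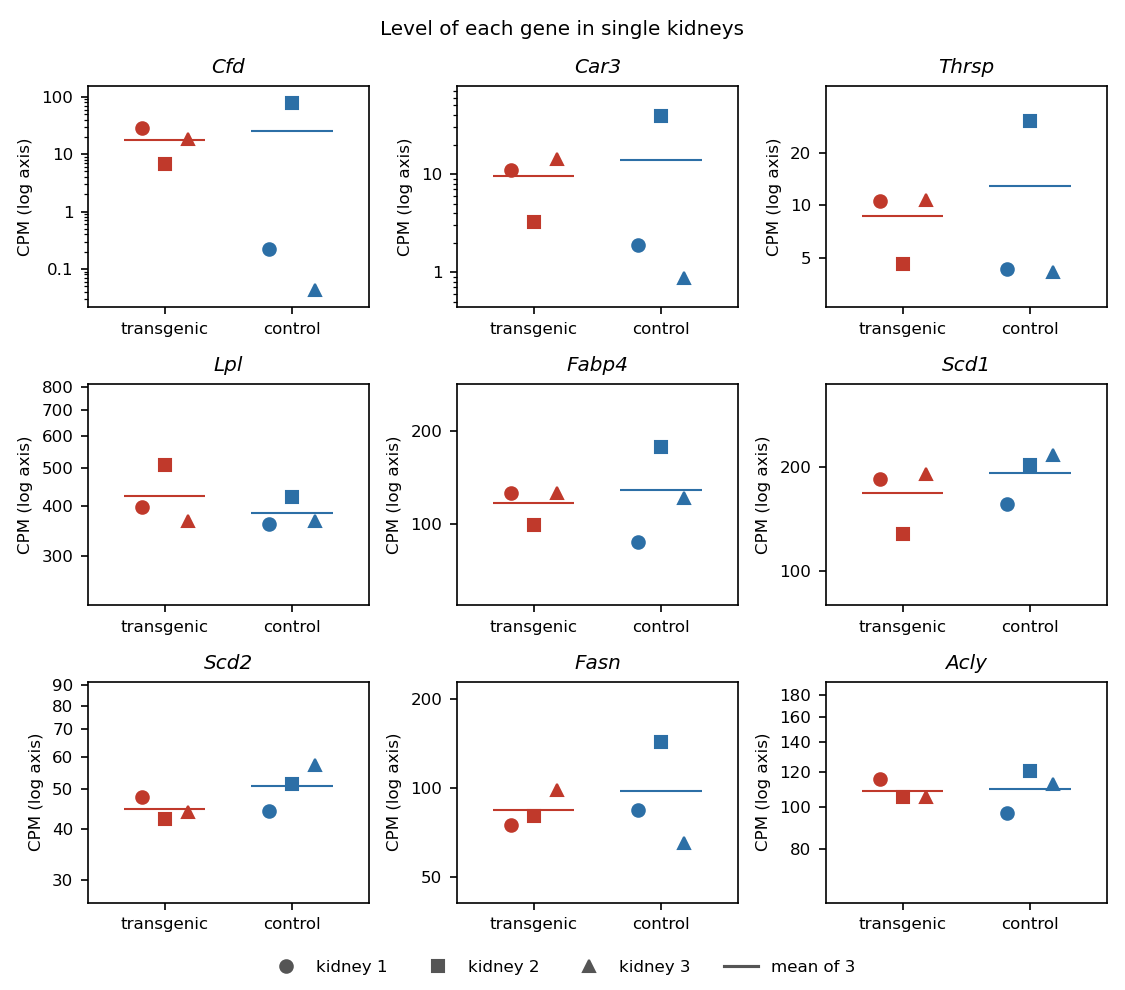
Level of the 9 genes in CPM (log axis, a scale of its own in each panel) in 3 transgenic and 3 control kidneys; each point is 1 kidney, with a circle, square or triangle for kidney 1, 2 or 3, and the line is the mean of 3. Control kidney 2 is highest in Cfd, Car3, Thrsp, Fabp4, Fasn and Acly, control kidney 3 is highest in Scd1 and Scd2, and transgenic kidney 2 is highest in Lpl.

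The spread fell off steeply after these 3 genes. On the log2 CPM scale the SD over the 6 kidneys was 3.84 for Cfd, the largest of the 7194 genes tested, 2.01 for Car3 and 1.12 for Thrsp, at rank 12 and 13, while the median gene had 0.14. Fasn (0.40) and Fabp4 (0.35) had a larger SD than 97.9% and 96.4% of the genes, Scd1 (0.28) than 91.4% and Lpl (0.19) than 73.5%. Scd2 (0.16) and Acly (0.11) were ordinary, above 63.7% and 37.3% of the genes. Single kidneys carried part of this: without control kidney 2 the SD was 0.71 for Thrsp and 0.22 for Fasn, and without transgenic kidney 2 it was 0.18 for Scd1 and 0.098 for Lpl. The SD of Cfd also depends on how its near-zero counts are treated, and was 2.53 on log2(CPM + 1). Since the list was drawn up for its spread between kidneys, these figures describe the choice and carry no test. Within groups, the SD of log2 CPM of Cfd was 1.05 in transgenic kidneys and 5.13 in controls, that of Car3 1.12 and 2.86, and that of Thrsp 0.70 and 1.63. In these 3 genes, then, the wider spread was among the controls, where control kidney 2 and control kidneys 1 and 3 were at opposite ends.

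Fabp4 and Lpl, which handle fatty acids taken from the blood, were abundant in every kidney. Fabp4 encodes the fatty acid binding protein of fat cells, also made by macrophages and capillary endothelium (gene ID 11770, chr3:10204342-10208616). It stood at 125.9, 99.1 and 125.9 CPM in transgenic kidneys, against 87.5, 178 and 122 CPM in control kidneys. As in Cfd, control kidney 2 was highest, but the lowest kidney was control kidney 1 and control kidney 3 was in the middle. Lpl encodes lipoprotein lipase (gene ID 16956, chr8:68880555-68906932), and stood at 398, 508 and 367 CPM in transgenic kidneys, against 361, 423 and 368 CPM in control kidneys. Here transgenic kidney 2 was highest, the lowest transgenic kidney in Cfd.

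The enzymes of fatty acid synthesis split into those highest in control kidney 2 and those highest in control kidney 3. Fasn, fatty acid synthase (gene ID 14104, chr11:120805958-120825166), stood at 75.0, 80.4 and 98.4 CPM in transgenic kidneys, against 84.4, 144 and 65.3 CPM in control kidneys. Its top kidney was that of Cfd, and its range over all 6 was 2.20-fold. Acly, ATP citrate lyase (gene ID 104112, chr11:100476352-100528000), had the smallest range of the members, 1.25-fold, at 116, 105 and 105 CPM in transgenic kidneys, against 96.6, 120 and 113 CPM in control kidneys. All 6 kidneys were thus close together in Acly, and the counting intervals of the highest, control kidney 2 and transgenic kidney 1, overlapped.

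Scd1 and Scd2, which encode stearoyl-CoA desaturases, are neighbours 87.6 kb apart on chromosome 19 (Scd1 gene ID 20249, chr19:44394450-44407709; Scd2 gene ID 20250, chr19:44293676-44306864). Scd1 stood at 184, 128 and 191 CPM in transgenic kidneys, against 157, 202 and 217 CPM in control kidneys. Scd2 stood at 48.0, 42.3 and 44.1 CPM in transgenic kidneys, against 44.3, 51.4 and 57.2 CPM in control kidneys. In both genes control kidney 3 was highest, where Cfd was lowest, and transgenic kidney 2 lowest, although in Scd2 its counting interval overlapped those of transgenic kidney 3 and control kidney 1. Their transcripts share 145 exact stretches of 50 bases, 3.03% of those in Scd1 and 2.68% of those in Scd2. Inexact matches were not searched, and how many reads were counted for the wrong gene was not tested.

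Levels of different genes can be set side by side only per length. Divided by the length of the joined exons in kb (GENCODE M21), Fabp4 averaged 131 ± 17.3 CPM per kb in transgenic kidneys and 144 ± 50.8 in control kidneys (SD, n = 3 each). Lpl followed at 103 ± 18.1 in transgenic and 93.3 ± 8.30 CPM per kb in control kidneys, Scd1 at 34.7 ± 7.17 and 39.7 ± 6.51, and Acly at 23.6 ± 1.31 and 23.8 ± 2.64. Fasn, Scd2, Thrsp and Car3 averaged between 5.66 and 10.1 CPM per kb in either group. Cfd reached 83.7 CPM per kb in control kidney 2, close to the Lpl level of 87.7 in control kidney 1, and was at 0.0466 in control kidney 3. Car3 and Thrsp, with wide swings, were thus among the lowest members per length, and Cfd ran from near the top to the bottom.

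Likeness to Cfd was measured by the Pearson r of log2 CPM over the 6 kidneys, a description with no test, since the genes were chosen for this pattern. Control kidneys 1 and 3 lie far below the other 4 in Cfd, so r was also computed on those 4. Car3 had r = 0.94 with Cfd (Spearman rho 0.94), and 0.96 over the 4 kidneys. Thrsp had r = 0.83 (rho 0.94), and 0.98 over the 4. These were the 2 of 8 members with r over 0.8, where 7.98% of all genes reached it and the median gene had -0.03. The likeness of both held in deviations from the group means, at 0.98 for Car3 and 0.97 for Thrsp, and without control kidney 2, at 0.94 and 0.83. Without control kidney 1 Thrsp was at 0.80 (0.797), just under the limit, and Car3 at 0.94.

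In such deviations Fasn (0.91) and Fabp4 (0.81) also exceeded 0.8, but the share of all genes that did so was not computed. Over the levels of all 6 kidneys, the other 6 members followed Cfd less closely. Fasn had r = 0.67 (rho 0.60), Fabp4 0.62 (0.77), Acly 0.51 (0.66) and Lpl 0.42 (0.43). Scd1 at 0.00 (0.03) and Scd2 at -0.28 (-0.03) had no such pattern over 6 kidneys. Control kidney 3 decided several of these values: without it r was 0.92 for Acly, 0.89 for Fabp4, 0.61 for Scd2, 0.57 for Scd1, 0.49 for Fasn and 0.29 for Lpl. Without control kidney 2, Fabp4 was at 0.40, Fasn at 0.51, Acly at 0.28, Scd1 at -0.22 and Scd2 at -0.56. Over the 4 kidneys with more Cfd, Fabp4 was at 0.98, Scd2 at 0.97, Acly at 0.90, Scd1 at 0.87, Fasn at 0.73 and Lpl at -0.48, but 4 points, 1 of them control kidney 2, describe little. Among themselves Car3 and Thrsp reached r = 0.95, Scd1 and Scd2 0.81, and Fabp4 and Acly 0.89. Scd1 and Lpl ran opposite, at -0.65.

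Over all 6 kidneys, a change in Cfd came with a smaller change in Car3, Thrsp, Fasn and Fabp4. A rise of Cfd by 1 unit of log2 CPM went with 0.49 units of Car3 and 0.24 of Thrsp, by least squares. For Fasn and Fabp4 it went with 0.07 and 0.06 units. These slopes include control kidneys 1 and 3, with only 6 and 2 counts of Cfd. Within the 3 transgenic kidneys Car3 ranged as widely as Cfd, 4.34-fold against 4.18-fold, and Thrsp less, 2.34-fold. The ratio of Car3 to Cfd (CPM over CPM) was 0.383, 0.478 and 0.777 in transgenic kidneys 1 to 3, against 8.50, 0.511 and 20.5 in control kidneys 1 to 3. That of Thrsp to Cfd was 0.370, 0.669 and 0.587 in transgenic kidneys, against 19.3, 0.393 and 96.5 in control kidneys. In the 4 kidneys with more Cfd both ratios thus lay between 0.370 and 0.777, while in control kidneys 1 and 3 Car3 and Thrsp were detected at low levels with almost no Cfd.

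**Figure D2:**
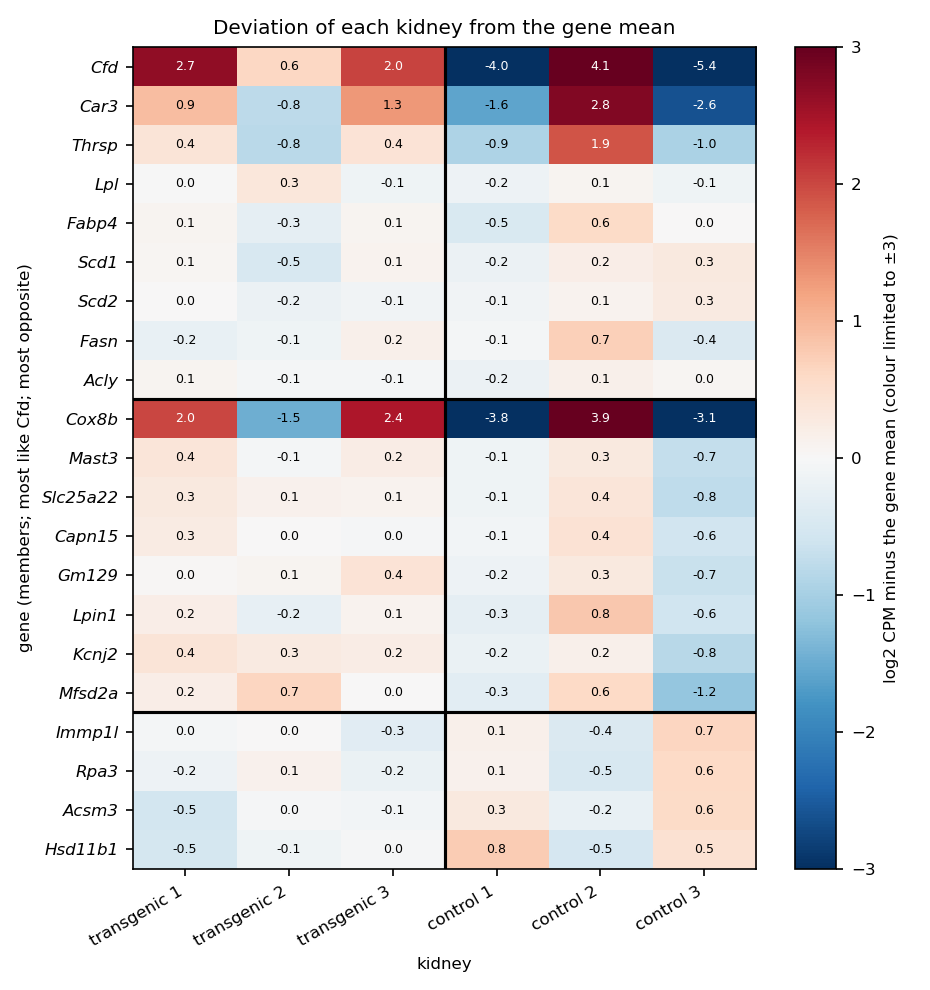
Deviation of each kidney from the gene's mean over the 6 kidneys, in log2 CPM (numbers; colour limited to 3 units either way), for the 9 members, the 8 other genes most like Cfd and the 4 most opposite, with transgenic kidneys on the left. The 8 and the 4 were taken only from genes that ranged over at least 1 log2 unit. Cfd, Car3, Thrsp and Cox8b share high values in control kidney 2 and low ones in control kidneys 1 and 3, and the remaining genes stay nearer to their mean.

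Outside the list, Cox8b was the gene most like Cfd among the 212 that ranged over at least 1 log2 unit. It encodes a subunit of cytochrome c oxidase found in mouse brown fat, heart and skeletal muscle. Its r was 0.93 (rho 0.89) over 6 kidneys and 0.95 without control kidney 3. Cox8b had 3.51, 0.262 and 4.73 CPM in transgenic kidneys 1 to 3, against 0, 13.7 and 0.0430 CPM in control kidneys 1 to 3. The listed order was that of Car3 except in control kidneys 1 and 3, where counts of 0 and 2 allow no order. A count of 0 in control kidney 1 allows a level of up to 0.110 CPM (3 counts). The counting interval of transgenic kidney 2 (6 counts, 0.0963 to 0.571 CPM) overlapped those of control kidneys 1 and 3. Those of transgenic kidneys 1 and 3 overlapped each other, so their order was not resolved either. Cox8b shared with Cfd, Car3 and Thrsp that control kidney 2 was highest, followed by transgenic kidneys 1 and 3.

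Among the same 212 genes, the next most like were Mast3, a serine/threonine kinase gene (r = 0.91), Slc25a22, a mitochondrial glutamate carrier (0.91), and Capn15 of the calpain family (0.88). After them came Gm129 (0.88), Lpin1 (0.88), the potassium channel gene Kcnj2 (0.88) and Mfsd2a, a lysophospholipid transporter (0.85). Lpin1 encodes lipin 1, a phosphatidate phosphatase of triglyceride synthesis. It stood at 83.3, 61.2 and 78.5 CPM in transgenic kidneys, against 60.5, 126 and 48.0 CPM in control kidneys. The order of kidneys was that listed for Cfd (rho 1, shared with 0.640% of genes), in which control kidneys 1 and 3 were not resolved. The remaining 6 were all lowest in control kidney 3, and without that library r was 0.68 for Mfsd2a, 0.76 for Gm129 and 0.77 for Capn15. Over the 4 kidneys with more Cfd the likeness was absent in Kcnj2 (r = -0.29) and Mfsd2a (-0.02) and weak in Gm129 (0.36), while Mast3 (0.80), Slc25a22 (0.84), Capn15 (0.88), Lpin1 (0.98) and Cox8b (0.94) kept a high r. Most opposite to Cfd among the 212 were Hsd11b1, which regenerates glucocorticoid (r = -0.92), and Acsm3, a medium-chain acyl-CoA synthetase (-0.91). Rpa3 of the replication protein A complex (-0.90) and Immp1l, a mitochondrial peptidase (-0.90), followed.

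**Figure D3:**
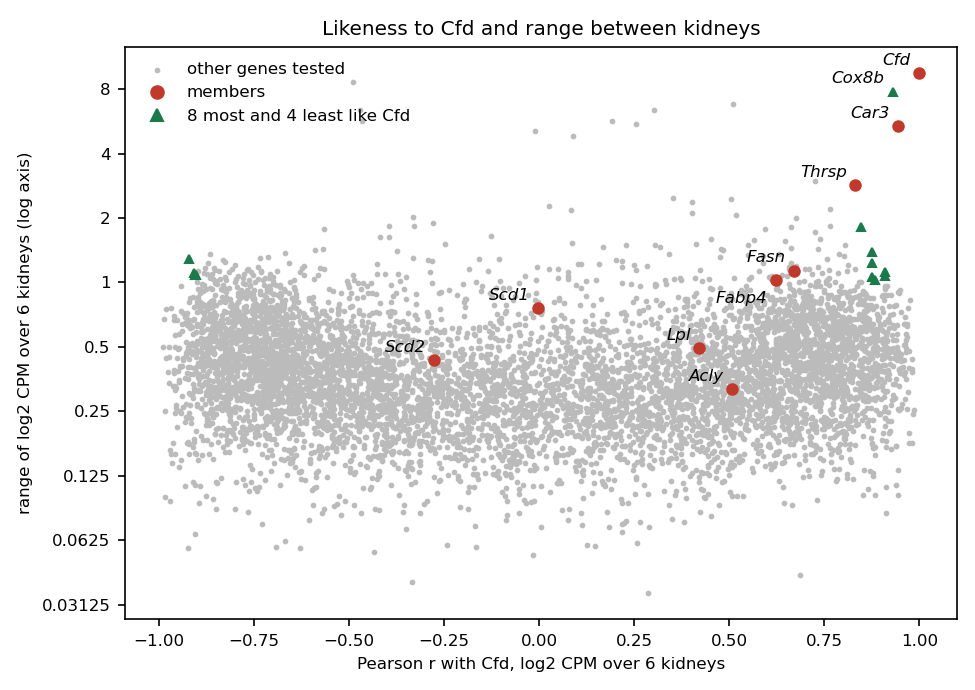
Pearson r with Cfd over the 6 kidneys (x axis) against the range of log2 CPM over the 6 kidneys (y axis, log scale) for the 7194 genes tested; circles are members, triangles the 8 genes most and the 4 least like Cfd, grey points all others. Triangles were chosen only among genes that ranged over at least 1 log2 unit. Cfd, Cox8b, Car3 and Thrsp stand at the upper right with ranges of 9.51, 7.78, 5.39 and 2.85, while Scd1, Scd2, Lpl and Acly sit among the other genes.

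The comparison of genotypes asked whether a presymptomatic cardiomyopathy goes with a difference of these genes in the kidney. None of the 9 members passed the edgeR quasi-likelihood test, each with an adjusted p of 0.997 (Benjamini-Hochberg), where 1 of 7194 genes passed (0.0139%) and 131 (1.82%) had an unadjusted p under 0.05. That gene was Ren1, renin. The groups overlapped in all 9 members, while of all genes 2.96% were higher and 3.02% lower in every transgenic kidney than in every control kidney, 5.98% together. The smallest unadjusted p among the members was that of Scd2, 0.131. With 3 kidneys against 3, an exact permutation test of 1 gene cannot go below p = 0.1.

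Mean levels were lower in transgenic kidneys for 8 of the 9 genes, with no difference past the test and with a median log2 fold change of -0.19, against 0.00 for all genes. Cfd averaged 17.98 ± 10.9 CPM in transgenic kidneys and 25.8 ± 44.5 CPM in control kidneys (SD, n = 3 each), a log2 fold change of -0.52 ± 1.54 (SE). Car3 averaged 9.51 ± 5.63 CPM in transgenic and 14.1 ± 22.0 CPM in control kidneys, and its log2 fold change was -0.55 ± 1.15. For Thrsp the means were 8.66 ± 3.53 and 12.9 ± 15.1 CPM, and the log2 fold change was -0.57 ± 0.74. In all 3 the SD of the controls exceeded their mean. These folds rest on control kidney 2: without it the log2 fold change was 7.30 for Cfd, 2.86 for Car3 and 1.05 for Thrsp, with adjusted p of 0.135, 0.578 and 0.578 (edgeR). Limma voom with array weights also turned the sign, to 5.12 for Cfd, 1.70 for Car3 and 0.63 for Thrsp.

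The remaining genes were more precise. The log2 fold changes were 0.14 ± 0.13 (SE) for Lpl, -0.14 ± 0.23 for Fabp4, -0.19 ± 0.17 for Scd1, -0.19 ± 0.11 for Scd2, -0.21 ± 0.26 for Fasn and -0.02 ± 0.10 for Acly. Without control kidney 2 those of Fabp4, Fasn and Acly were 0.16, 0.18 and 0.05. Scd1 and Scd2 stayed below 0 when any 1 library was left out, at -0.32 to -0.03 and -0.28 to -0.10. Scd2 had 44.8 ± 2.89 CPM in transgenic and 51.0 ± 6.43 CPM in control kidneys (SD, n = 3 each), with transgenic kidney 1 above control kidney 1.

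**Figure D4:**
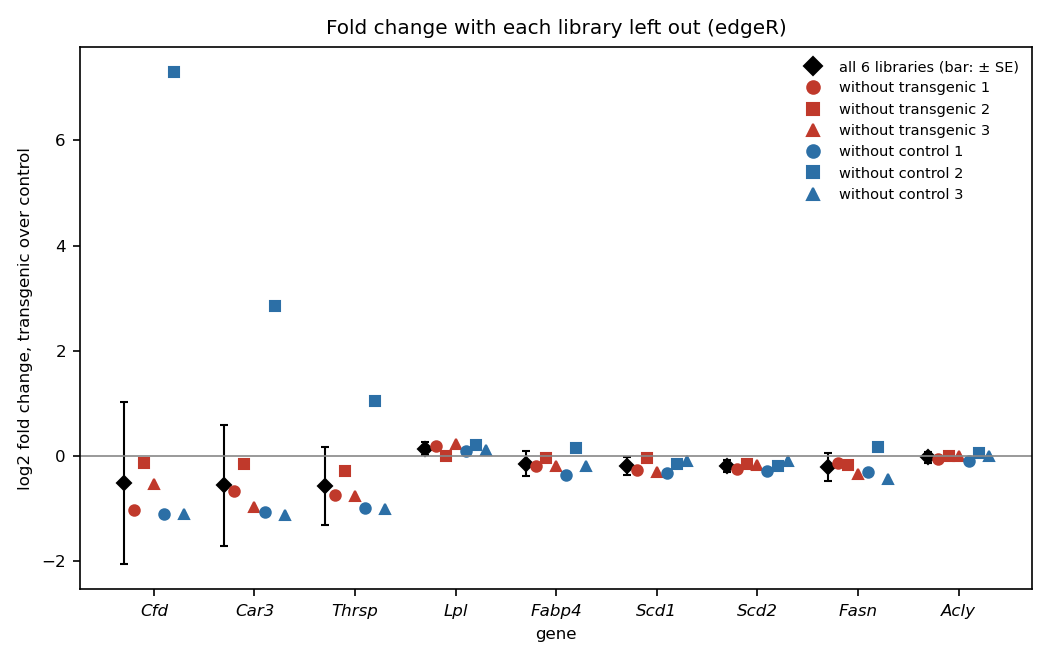
Log2 fold change of the 9 genes, transgenic over control, by edgeR with all 6 libraries (diamond, bar ± SE) and with each library left out (red, a transgenic kidney; blue, a control kidney; circle, square and triangle for kidneys 1, 2 and 3). Leaving out control kidney 2 (blue square) moves Cfd to 7.30, Car3 to 2.86 and Thrsp to 1.05, and leaves the other 6 between -0.18 and 0.22.

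The wider set of fat cell genes could be followed only in part. A gene is listed only if it reached the authors' level limit in at least 2 of the 6 samples. One that was high in control kidney 2 alone would thus be missing, and absence does not show a low level there. Of 28 genes listed for fat cells 13 are in the table, 4 of them members, and Adipoq, Lep, Retn, Plin1, Plin4, Cidec, Pparg and Adrb3 are among those outside the listed genes. Of the 9 others, 6 were higher and 3 lower in transgenic kidneys, none passed the test, and the median log2 fold change was 0.02. Lipe, hormone-sensitive lipase, alone had r over 0.8 with Cfd over all 6 kidneys; without control kidney 3 it was joined by Cebpa, an adipogenic transcription factor gene (0.88, and 0.68 with that kidney). Lipe stood at 27.2, 21.3 and 25.6 CPM in transgenic kidneys, against 19.3, 32.5 and 17.5 CPM in control kidneys. The order of kidneys was that listed for Cfd (r = 0.95, rho 1), in which control kidneys 1 and 3 were not resolved. Without control kidney 3 Lipe had r = 0.92. The aquaporin gene Aqp7 ran most opposite to Cfd of the 9 (r = -0.88, and -0.76 without control kidney 3). The most abundant of the others were Gpd1, a glycerol-3-phosphate dehydrogenase gene (r = 0.56), the fatty acid transporter gene Cd36 (-0.68), Dgat2, which completes triglyceride synthesis (0.65), and Pnpla2, adipose triglyceride lipase (0.75, but 0.40 without control kidney 3).

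Of 32 lipogenic enzymes and regulators 24 were tested, 5 of them members. Of the 19 others, 12 were higher and 7 lower in transgenic kidneys, none passed the test, and the median log2 fold change was 0.01. With Cfd, 5 of the 19 had r over 0.8: Lpin1, Scap (0.87), which escorts SREBP to the Golgi, the elongase gene Elovl1 (0.82), Mlxipl (0.82), which encodes ChREBP, a carbohydrate-responsive factor, and Nr1h2 (0.81), which encodes LXR beta. Of all genes, 7.98% exceeded 0.8 over all 6 kidneys. All 5 were lowest in control kidney 3, and without that library none of these 5 exceeded 0.8, where 5.77% of all genes did. Lpin1 (0.797) and Scap (0.794) then lay just under the limit, and Mlxipl, Nr1h2 and Elovl1 were at 0.66, 0.64 and 0.62. Srebf1, the master regulator of these enzymes, had r = 0.90 without control kidney 3 and 0.65 with it. Me1, malic enzyme, ran opposite (-0.81, and -0.62 without control kidney 3), and Acss2, acetyl-CoA synthetase, was flat (0.08).

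Among partners of lipoprotein lipase, 14 of 19 are in the table. Of the 13 besides Lpl, 6 were higher and 7 lower in transgenic kidneys, none passed the test, and the median was -0.01. Slc27a1, a fatty acid transport protein, was the 1 with r over 0.8 over all 6 kidneys (0.96), at 30.3, 29.7 and 30.6 CPM in transgenic kidneys, against 25.7, 35.7 and 22.2 CPM in control kidneys. Without control kidney 3 there were 3: Acsl1, a long-chain acyl-CoA synthetase gene (0.99, against 0.22 with all 6), Slc27a1 (0.93) and Apoc1 (0.83, against 0.73). Gpihbp1, which holds the lipase on the capillary wall, had r = -0.80 (-0.59 without control kidney 3), and Apoc1, an apolipoprotein gene, had 16.9 CPM in control kidney 2 and between 2.10 and 5.09 CPM in the other 5 kidneys. Of the 15 lipid droplet and lipolysis genes 9 are in the table, 5 higher and 4 lower, with none passing the test and a median of 0.00. Their median r with Cfd was 0.45. Lipe was the 1 with r over 0.8, joined by G0s2 without control kidney 3 (0.81, against 0.08 with all 6). Plin2, the droplet coat protein of non-fat cells, ran opposite to Cfd (r = -0.90), as did Abhd5 (-0.95).

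No measured relative of the members had r over 0.8 with Cfd, with or without control kidney 3, in the families listed. The 3 other fatty acid binding protein genes in the table, Fabp3, Fabp5 and Fabp7, had r of -0.83, 0.21 and -0.47 with Cfd, and of -0.70, 0.58 and -0.23 without control kidney 3. The 5 other carbonic anhydrase genes, Car2, Car4, Car12, Car14 and Car15, lay between -0.77 and 0.50, and between -0.58 and 0.34 without control kidney 3. In the alternative complement pathway, Cfb, the substrate of factor D, had r = -0.21, and Cr1l had -0.68; without control kidney 3 they had 0.27 and -0.35. None of the 13 listed sterol synthesis genes exceeded 0.8, with a median of -0.34, and 11 of the 13 were lower in transgenic kidneys without passing the test.

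Markers of other cells were read in the same libraries. In bulk tissue, more cells of a type and more RNA per cell cannot be told apart. Of 10 white fat markers 3 were measured, Cd36, Fabp4 and Cfd; 7 are outside the listed genes. Of 9 brown fat markers 3 were measured: Cox8b, Cox7a1 and Ppargc1a. Unlike Cox8b, Cox7a1 was lowest in control kidney 2, at 29.5, 34.5 and 33.6 CPM in transgenic kidneys, against 36.8, 25.1 and 42.7 CPM in control kidneys. Of 9 skeletal muscle markers only Pvalb and Car3 were measured, and Pvalb had r = -0.49 with Cfd. The summed level of 7 capillary endothelium markers other than Fabp4 was 649 to 708 CPM in transgenic kidneys and 721 to 855 CPM in control kidneys, and that of 8 macrophage and dendritic cell markers 307 to 377 CPM in transgenic and 350 to 400.3 CPM in control kidneys. All 10 proximal tubule markers were measured, as the labelled tissue calls for. Their sum was 64235 to 67078 CPM in transgenic and 64438 to 73146 CPM in control kidneys. The r of the sum with Cfd was -0.88 for proximal tubule, -0.78 for capillary endothelium, -0.71 for brown fat and 0.15 for macrophage and dendritic cell markers. A negative r was thus not particular to the proximal tubule. These r of sums were not computed without control kidney 3. A sum follows its most abundant genes. That of brown fat was 66.6 to 77.0 CPM in transgenic and 77.4 to 90.9 CPM in control kidneys. Cox8b gave at most 13.7 CPM of it, in control kidney 2. Alone, Cox8b had r = 0.93 with Cfd, so the negative r of the sum does not hold for each brown fat marker. The part of any of these cells in the spread of Cfd, Car3 and Thrsp was not tested.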

How the data were processed

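The authors deposited, per the file headers, raw estimated counts per gene and log2 normalized values for each library, restricted to genes with an NRPKM (a normalized expression value) of 5.0 to 84233.281 in at least 2 of the 6 samples. This filter leaves out genes that are low in all samples, and also a gene above the lower limit in a single kidney only. The build is mm10, per the submitters' processing notes. For aligner and counter, names were not given in the sources used here. Of 24 per-sample columns, 12 were not used, because their names match none of these samples.

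Counts were rounded and 7194 genes outside X and Y were compared with edgeR 4.0.16 (quasi-likelihood, TMM, filterByExpr, Benjamini-Hochberg threshold 0.05) in R 4.3.3; the fit was tested on simulated data. Levels are TMM-scaled CPM, and likeness used log2 CPM with a prior count of 2. DESeq2 1.42.0 and limma 3.58.1 were alternatives. Members and lists were chosen with earlier results of these data known. Genes named were the members, the 8 most and 4 least like Cfd ranging over at least 1 log2 unit, Ren1, and in each list genes with r over 0.8 or else up to 4 of the most abundant. Srebf1, Cebpa, Aqp7, G0s2, Abhd5, Gpihbp1, Apoc1, Car14, Cox7a1 and Pvalb were added after their values were seen.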

Additional observations from a re-analysis of the deposited data

How the results depend on the processing

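No member passed a test under any alternative run; the lowest adjusted p was 0.135, for Cfd without control kidney 2 (edgeR). The count of 1 gene called was 0 with X and Y included (112 at an unadjusted p under 0.05), 2 with DESeq2, 0 with limma on the authors' log2 values (134 unadjusted) and 0 to 2 with 1 library left out (47 to 597 unadjusted). With 1 library left out, log2 fold changes ran from -1.11 to 7.30 for Cfd, -1.12 to 2.86 for Car3, -0.9996 to 1.05 for Thrsp, -0.0053 to 0.24 for Lpl, -0.35 to 0.16 for Fabp4, -0.43 to 0.18 for Fasn and -0.10 to 0.054 for Acly. With limma voom and array weights the sign turned for Cfd (5.12), Car3 (1.70), Thrsp (0.63), Fabp4 (0.28), Scd1 (0.052) and Acly (0.13). On the authors' log2 values it turned for Cfd (4.09) and Car3 (0.99). With the replicate block the count stayed at 1, and Cfd (3.13), Car3 (1.27) and Thrsp (0.11) turned sign. Deviations of same-numbered kidneys correlated at 0.00, -0.02 and 0.33. Not every kidney correlated best with its own number, but transgenic kidney 3 and control kidney 3 did. With 3 kidneys in a group, such correlations cannot decide whether equal numbers mark a pair or a shared batch. Of 8 members, 2 had r over 0.8 with Cfd, 4 in deviations from group means (Car3, Thrsp, Fasn and Fabp4), and 1 to 4 with 1 library left out. Of all genes 7.98% exceeded it in the main setting and 5.77% without control kidney 3. For the other settings this share was not computed, so those counts have no background. The cause of the changes between settings was not tested. Cfd in control kidneys 1 and 3 rests on 6 and 2 counts, which limits its folds.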
